A study of Mus musculus with 13 samples.

Results

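Fertilized mouse embryos kept in aphidicolin (Aph+) were set against fertilized embryos kept without it (Aph-), over the genes of an Illumina mouse BeadChip. The 6 arrays, 3 in each group, were taken by their labels out of 13 in the series, and 8601 of the 16593 gene symbols on the chip passed the filter on detection and were tested. The study's methods describe unmodified C3H/HeN oocytes injected with C57Bl/6J sperm, aphidicolin at 2 µg/ml added 6 hours after activation, and pools taken at 96 hours post activation (hpa). Aph+ embryos had stayed at the 1-cell stage, whereas Aph- embryos, which received no aphidicolin, were pooled whatever stage they had reached. The methods also call these embryos fertilized in vitro, the term that the labels use. The labels differ from the methods in that they give the cell type of all 6 samples as blastocysts, and call the 3 arrays of each group untimed, 96 h and blastocyst. The submitters list each array as 1 biological replicate of its own sample type, and neither source says whether the 3 pools of a group were cultured separately. The p-values thus speak of the spread between these pools, which may be technical. The values of 3 arrays are given below in the order untimed, 96 h, blastocyst.

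Aphidicolin blocks the replicative DNA polymerases and so stops the cell cycle at the start of S phase. In the mouse, transcription from the embryo's own genome begins at the 1-cell stage and becomes strong at the 2-cell stage, when a set of genes including Zscan4, Tcstv and Zfp352 is transcribed for a short time, while mRNAs stored in the oocyte are degraded. Embryos that go on to divide form a blastocyst, with an outer epithelium, the trophectoderm, around a fluid-filled cavity and an inner cell mass.

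The 2 groups differed in how bright and how alike their arrays were. Mean bead intensity was 316 to 374 on the Aph- arrays and 116 to 129 on the Aph+ arrays, and 9157 to 9487 against 5793 to 6711 probes were detected (detection p under 0.01). The brightest Actb probe, for beta-actin, had an intensity of 6017 to 9817 without and 455 to 836 with aphidicolin. For the comparison, neqc of limma subtracted the background, gave every array the same distribution of values and took log2. A gene's difference is therefore measured against the rest of its array and is no amount per embryo, and in such pools fewer cells of a type cannot be told apart from less RNA per cell. Arrays correlated at 0.978 to 0.985 within Aph-, at 0.827 to 0.834 within Aph+ and at 0.594 to 0.676 between the groups, across genes that are not independent replicates. The median standard deviation of a gene was 0.20 in Aph- and 0.59 in Aph+ embryos on the log2 scale.

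The labelled cell type held for the Aph- arrays only. Of 9 blastocyst genes, 8 were lower and none was higher in Aph+ embryos, with a summed linear level of 17541 to 18678 on the Aph- and 959 to 1628 on the Aph+ arrays. Of 8 oocyte genes, 7 were higher and none was lower, with sums of 319 to 579 and of 15233 to 17934, against 20520 on the single array of metaphase II (MII) oocytes, which, like the cumulus cells, were from B6C3F1 mice by their label and so of another strain than the embryos' oocytes. Over all genes tested 17.6% were higher and 23.3% lower. Of the 8 oocyte genes 5 were undetected on every Aph- array, and of the 9 blastocyst genes 3 were undetected on every Aph+ array. Such genes passed the filter on detection through the other group, so the counts are a description. Eomes and Pou5f1, a trophectoderm and a pluripotency regulator, were not detected on any Aph+ array and had bounds of at least 11.2-fold and at least 1.66-fold for their falls, although the 2 probes of Pou5f1 differed in direction and its sign turned with the authors' own log2 values. Gdf9, a growth factor of the oocyte, stood at 7.93, 6.73 and 7.41 on the Aph- arrays and 12.73, 12.50 and 12.77 on the Aph+ arrays. The samples labelled blastocysts and treated with aphidicolin were thus low in most defining mRNAs of that stage.

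In all, 3517 of the 8601 genes (40.9%) differed between the groups at an adjusted p under 0.05 in limma's test, 1515 of them (17.6%) higher and 2002 (23.3%) lower in Aph+ embryos. These shares are the background for each gene list below. Over all genes the median log2 difference was -0.16, and 4360 genes (50.7%) had an unadjusted p under 0.05. The fit gave each gene 1 spread shared by both groups, although 6863 of the 8601 genes varied more among the Aph+ arrays. Without the untimed, the 96 h or the blastocyst Aph- array, 1252, 1295 or 1188 genes were lower and 1036, 1035 or 988 higher. Without the Aph+ array of the same label, 2197, 2116 or 2125 were lower and 1769, 1628 or 1679 higher. The part of the unequal spread in these counts was not tested. When arrays were aligned at the 75th percentile in place of equal distributions, 2936 genes were higher and 3001 lower. The 3 Aph+ arrays lay above all 3 Aph- arrays for 2144 genes (24.9%) and below them for 2875 genes (33.4%). A difference of at least 2-fold went with the adjusted p in 1413 genes that were higher (16.4%) and 1798 that were lower (20.9%). Where a group was not detected on any of its arrays, its level was set at the detection limit of each array and the fold was written as a lower bound. For the genes named below the same was done array by array: a value under its array's limit was raised to it and the fold is given as at least so much, while log2 differences, standard errors and p-values are those of the fit. Of 239 named genes 75 were detected on 1 or 2 arrays of a group, and at the limits none of the 69 called among them turned sign. The limit was higher on the dim Aph+ arrays, and 370 of the 2002 lower genes then had no fold left, against 12 of the 1515 higher genes. Detected on all 3 Aph+ and on no Aph- array were 179 of the higher genes, which is 2.08% of the 8601 tested. On all 3 Aph- and no Aph+ array were 970 of the lower ones, 11.3% of the 8601. A group undetected on all its arrays was found for 355 of the 1515 higher and 987 of the 2002 lower genes. Among the 3211 genes detected on all 6 arrays, which leaves out both kinds of undetected gene, 898 were higher (28.0%) and 549 lower (17.1%), and their median was 0.20.

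**Figure D1:**
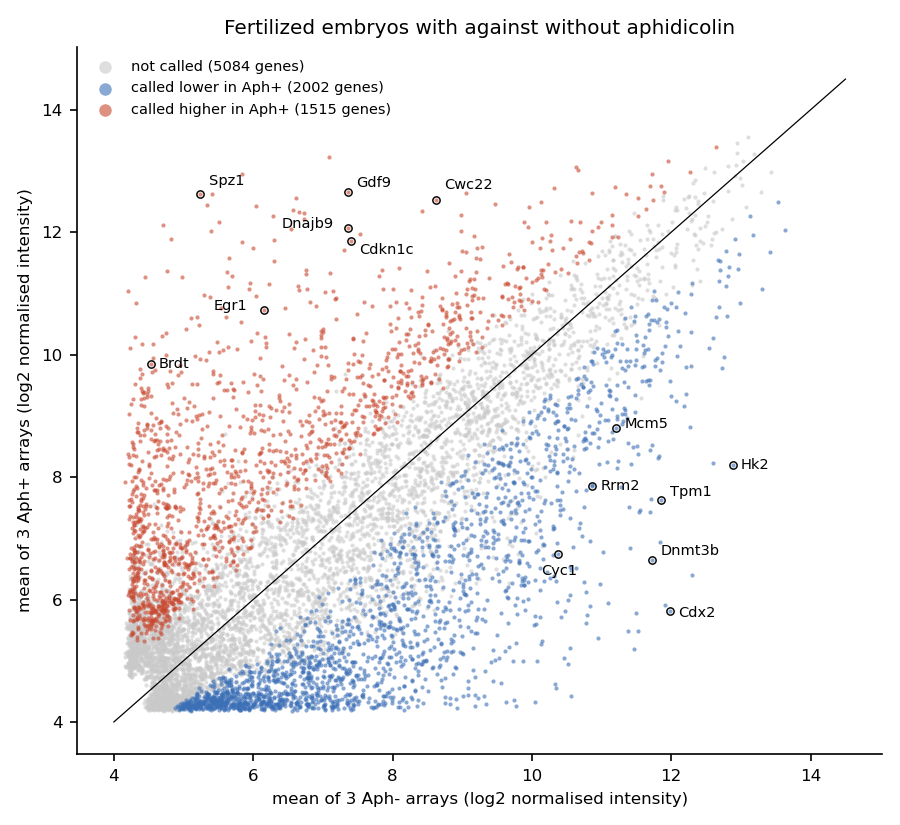
Mean of the 3 Aph+ arrays (vertical axis) against the mean of the 3 Aph- arrays (horizontal axis), both as log2 normalised intensity, for the 8601 genes tested; the line marks equal means, and red and blue points are the 1515 genes called higher and the 2002 called lower in Aph+ embryos. Named genes from Spz1 to Cdx2 are ringed, and the blue points that lie along the bottom are genes at the floor on the Aph+ arrays.

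Of the 10 genes with the largest rises, 6 lay on chromosome 13. Gm20767, an uncharacterized gene, had log2 values of 5.06, 4.22 and 4.84 on the Aph- arrays and 11.96, 12 and 12.39 on the Aph+ arrays, and was at least 150.4-fold higher (adjusted p = 0.000137). Spz1, a basic helix-loop-helix factor described in the testis, had 5.23, 4.36 and 6.13 on the Aph- arrays and 12.67, 12.52 and 12.70 on the Aph+ arrays (at least 154-fold higher, log2 difference 7.39, standard error 0.45, adjusted p = 0.000238). On the single MII oocyte array both were undetected, at 4.40 and 4.23. Tcstv1, a gene of the 2-cell stage, rose from 6.19, 4.56 and 6.76 to 13.02, 12.92 and 12.92 (at least 133-fold), while AF067061, BC147527 and B020031M17Rik rose at least 139-fold, at least 122-fold and at least 90.7-fold. The Aph+ arrays of these 6 genes lay within 1 log2 unit of each other, and on the Aph- arrays the 96 h array was the lowest. The other 4 rises were Gm428 (at least 121-fold), Bex6 (at least 83-fold), Oosp1 (at least 85.4-fold) and 1700093K21Rik (at least 89.9-fold). Bex6 had 4.59, 4.22 and 7.39 on the Aph- arrays, the highest of them the blastocyst array. Oosp1, which encodes a protein secreted by the oocyte, stood at 11.56, 10.99 and 11.53 on the Aph+ arrays and at 12.80 in the oocyte, so it was the only 1 of the 10 with an oocyte level above every Aph+ array.

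The 10 largest falls were ranked by log2 difference, before single values were raised to their limits. Each was measured on few Aph+ arrays, 8 of them on 1 and the others on 2. Their order and their place among the 10 thus rest in part on values under the detection limit. Dnmt3b, detected on all 3 Aph+ arrays, fell 33.8-fold, which is more than the bounds below for Ddah1, Cldn4, Wnt3a and Iqgap1. AA467197, the mouse form of NMES1 and a relative of a cytochrome oxidase subunit, read 11.82, 11 and 11.58 on the Aph- arrays and 5.96, 5.0 and 4.64 on the Aph+ arrays and was at least 45.6-fold lower (log2 difference -6.27, standard error 0.42, adjusted p = 0.000261). Cdx2, the trophectoderm factor, had 11.75, 11.92 and 12.28 on the Aph- arrays and 7.18, 5.37 and 4.88 on the Aph+ arrays (at least 49-fold lower, adjusted p = 0.000690), with the untimed array highest among the Aph+ ones. Ank, which exports pyrophosphate, Ddah1, which breaks down methylated arginine, and Iqgap1, an actin scaffold, were also highest on the untimed Aph+ array, at 7.59, 8.46 and 7.71. The 3 fell at least 42.6-fold, at least 26.1-fold and at least 18.8-fold. Their Aph+ arrays spread over more than 2 log2 units and still did not reach the Aph- arrays. Stard10, a lipid transfer protein, was at least 45.9-fold lower, Adh1, an alcohol dehydrogenase, at least 38-fold, BC051665 at least 56.2-fold, the tight junction protein gene Cldn4 at least 24.7-fold and the signalling ligand Wnt3a at least 24.6-fold. Of these 10 genes, Ank, Ddah1, Cldn4 and Iqgap1 were detected in the oocyte.

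**Figure D2:**
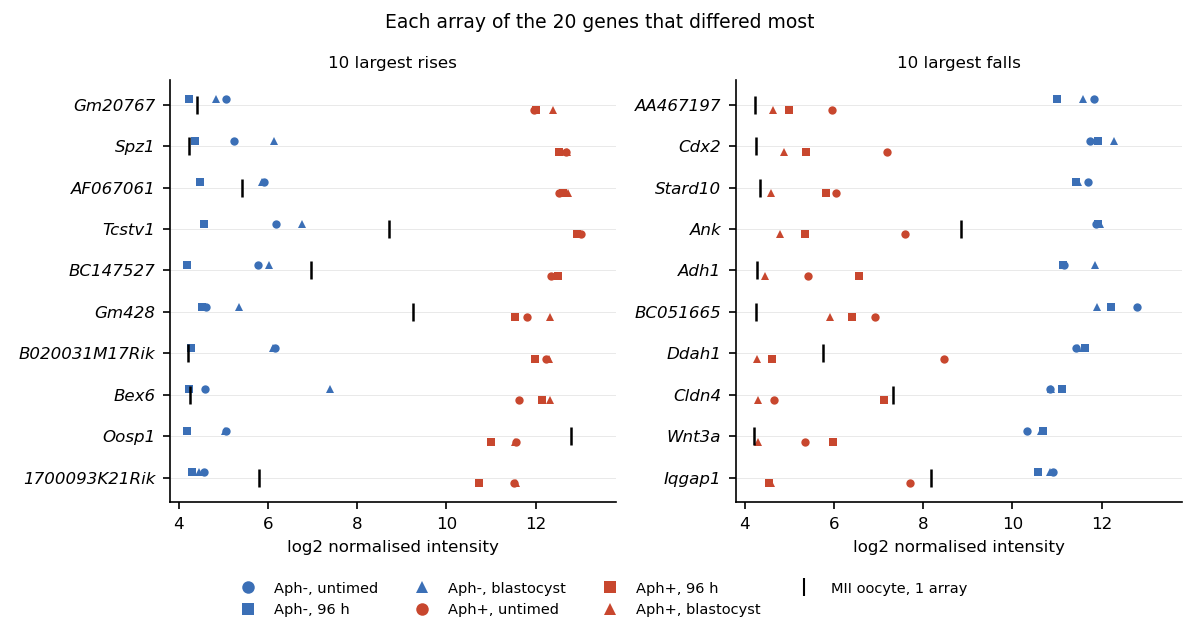
Log2 normalised intensity (horizontal axes) of each of the 6 arrays for the 10 genes with the largest rises (left) and the 10 with the largest falls (right), with blue for Aph-, red for Aph+ and a symbol for the sample type; the black bar is the single MII oocyte array. The red points of the rises lie close together between 10.74 and 13.02, and those of the falls spread from 4.27 to 8.46. The genes were ranked before single values were raised to their limits.

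Of the lists of gene function, the genes of the 2-cell stage had the highest share of rises. Of 23 tested, 18 were higher and 2 lower in Aph+ embryos, a median log2 difference of 3.92 against -0.16 over all genes. Tcstv3 had 7.68, 5.26 and 8.35 on the Aph- arrays and 13.18, 13.20 and 13.29 on the Aph+ arrays (70-fold higher), and Ddit4l, an inhibitor of mTOR signalling, had 6.76, 5.46 and 6.63 on the Aph- arrays and 12.03, 12.38 and 12.37 on the Aph+ arrays (62.8-fold). Zscan4c, a factor that acts at telomeres, was undetected on the Aph- arrays, at 4.38, 4.20 and 4.54, and read 8.34, 8.65 and 9.09 with aphidicolin (at least 15.1-fold higher, adjusted p = 0.000243). For the 18 higher genes the medians of the arrays were 5.07, 4.54 and 5.27 without and 8.99, 9.48 and 9.82 with aphidicolin, and in 17 of the 18 the lowest Aph- array was the 96 h one. On the oocyte array 13 of the 18 were undetected, and 17 lay at least 2-fold above it in Aph+ embryos. Guca1a, a calcium sensor of photoreceptors, rose from a level already detected in Aph- embryos, with 8.38, 7.71 and 9.19 on the Aph- arrays and 12.38, 12.38 and 12.27 on the Aph+ arrays. Dppa4, a chromatin protein of pluripotent cells, was bright in both groups, with 11.82, 11.38 and 11.97 on the Aph- arrays and 12.83, 13.02 and 13.01 on the Aph+ arrays (2.35-fold higher). The 2 lower members were Gata2, a factor of the trophectoderm that is also listed for the 2-cell stage (at least 18.9-fold lower), and Pramel6 (at least 1.74-fold lower). Pramel7 did not pass the test (log2 difference -0.10, adjusted p = 0.768). Tcstv, Tdpoz, Usp17l and Zscan4 genes have near-identical copies, so a probe's value may belong to several of them.

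Several of the largest rises on chromosome 13 lay close together. The window described here was centred on Tcstv1, 1 of the 10 largest rises, and holds others of them. Its counts were thus partly fixed by that choice and are a description. Near copies within it may share a signal, so its genes are not independent. Within 1000 kb of Tcstv1, in the mouse assembly GRCm38.p6, 10 genes were tested, 8 were higher and none was lower: Zfp131, AF067063, Tcstv1, B020031M17Rik, Gm20767, AF067061, BC147527 and Tcstv3. Zfp131, a zinc finger gene with no near copy in that group, rose least (7.92, 7.96 and 8.07 on the Aph- arrays and 10.26, 10.27 and 10.65 on the Aph+ arrays, 5.32-fold). The other 2 neighbours did not pass the test, 4833420G17Rik with a difference of -0.46 and Hmgcs1, an enzyme of cholesterol synthesis, with -0.64 (adjusted p = 0.640 and 0.135). Over the whole of chromosome 13 the share of higher genes was 19.5% (60 of 308), close to the 17.6% of all genes.

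The promoter of Zfp352, a zinc finger gene of the 2-cell stage that was undetected in Aph- embryos and at least 16.8-fold higher in Aph+ embryos, is shown because it repeats a short motif. Zfp352 read 4.67, 4.35 and 4.68 on the Aph- arrays and 8.43, 8.27 and 9.86 on the Aph+ arrays. The motif GGATTA, searched on both strands, is the core bound by homeodomain proteins of the OTX and OBOX kind. The RefSeq window from 250 bases before to 50 after the start of Zfp352 holds 9 matches, all on the other strand and in capitals here, 20 to 21 bases apart and 227 to 61 bases before the start (GRCm38.p6, chr4:90218570-90218819, plus strand).
Zfp352: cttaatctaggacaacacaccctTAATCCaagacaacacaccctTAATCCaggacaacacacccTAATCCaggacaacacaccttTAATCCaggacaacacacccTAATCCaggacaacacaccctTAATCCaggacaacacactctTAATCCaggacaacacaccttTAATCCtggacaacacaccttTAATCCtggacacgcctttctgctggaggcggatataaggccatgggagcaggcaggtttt
No other of 32851 windows held as many, and 7.06% held at least 1. Of 23 genes of the list 17 had a window, and 4 of these held the motif: Guca1a, Sp110, Tdpoz1 and Zfp352, all of them higher in Aph+ embryos, as were 9 of the 13 without it. A match describes the letters of the window and is no evidence of binding.

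Set against the single MII oocyte array, the genes called higher were of several kinds. Of the 1515, 848 (56.0%) lay at least 2-fold above the oocyte array in Aph+ embryos, 427 within 2-fold of it and 240 below it. In the Aph- embryos 285 of the same genes lay above the oocyte array and 574 below it. Of the 2002 genes called lower, 1205 (60.2%) lay at least 2-fold above the oocyte array in Aph- embryos, and 281 did in Aph+ embryos. Another 729 (36.4%) lay below it in Aph+ embryos. For all genes tested, 29.8% of Aph+ and 33.4% of Aph- means lay at least 2-fold above it. The oocyte array detected 905 of the 1515 (59.7%), 1121 of the 2002 (56.0%) and 54.8% of all genes tested. Undetected values entered as they were, and the oocyte limit was 5.67, so a 2-fold position can lie within background. The oocyte group has 1 array, so these positions carry no error.

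**Figure D3:**
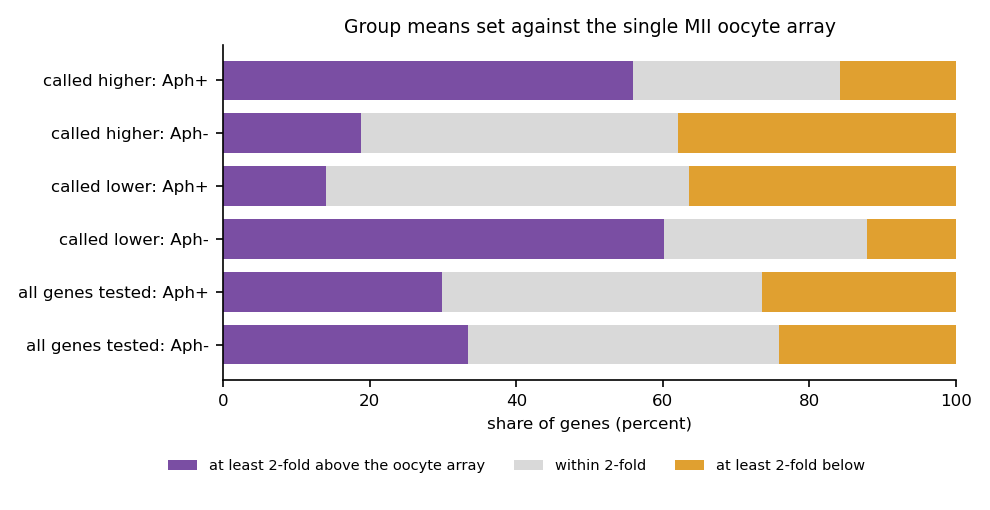
Share of genes (horizontal axis, percent) whose group mean lay at least 2-fold above (purple), within 2-fold of (grey) or at least 2-fold below (orange) the single MII oocyte array, for genes called higher, called lower and all genes tested, in Aph+ and Aph- embryos. In the top bar 56.0% of the genes called higher lay above the oocyte in Aph+ embryos, and in the fourth bar 60.2% of the genes called lower did so in Aph- embryos. Undetected oocyte values entered as they were.

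By gene list, the calls ran in opposite directions. Besides the 2-cell stage genes, the highest shares of rises were in histones, the RNA polymerase II machinery and the p53 response, and the highest shares of falls in tRNA synthetases, actin and microtubules, the tricarboxylic acid cycle, oxidative phosphorylation, fatty acid metabolism and epithelial genes. The lists overlap in some genes, and a gene detected in 1 group only passed the filter through that group, so the shares and medians are descriptions. Among genes detected on all 6 arrays the balance of some lists lay further toward rises, as it did for all such genes (28.0% higher, 17.1% lower): 12 of 29 histone modifiers were higher and 1 lower, 10 of 30 checkpoint and repair genes higher and 5 lower, and 20 of 49 solute carriers higher and 9 lower. Falls outnumbered rises there too for oxidative phosphorylation (30 of 54 lower, 4 higher), actin and microtubules (13 of 25 lower, 2 higher) and the proteasome (14 of 31 lower, 1 higher).

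**Figure D4:**
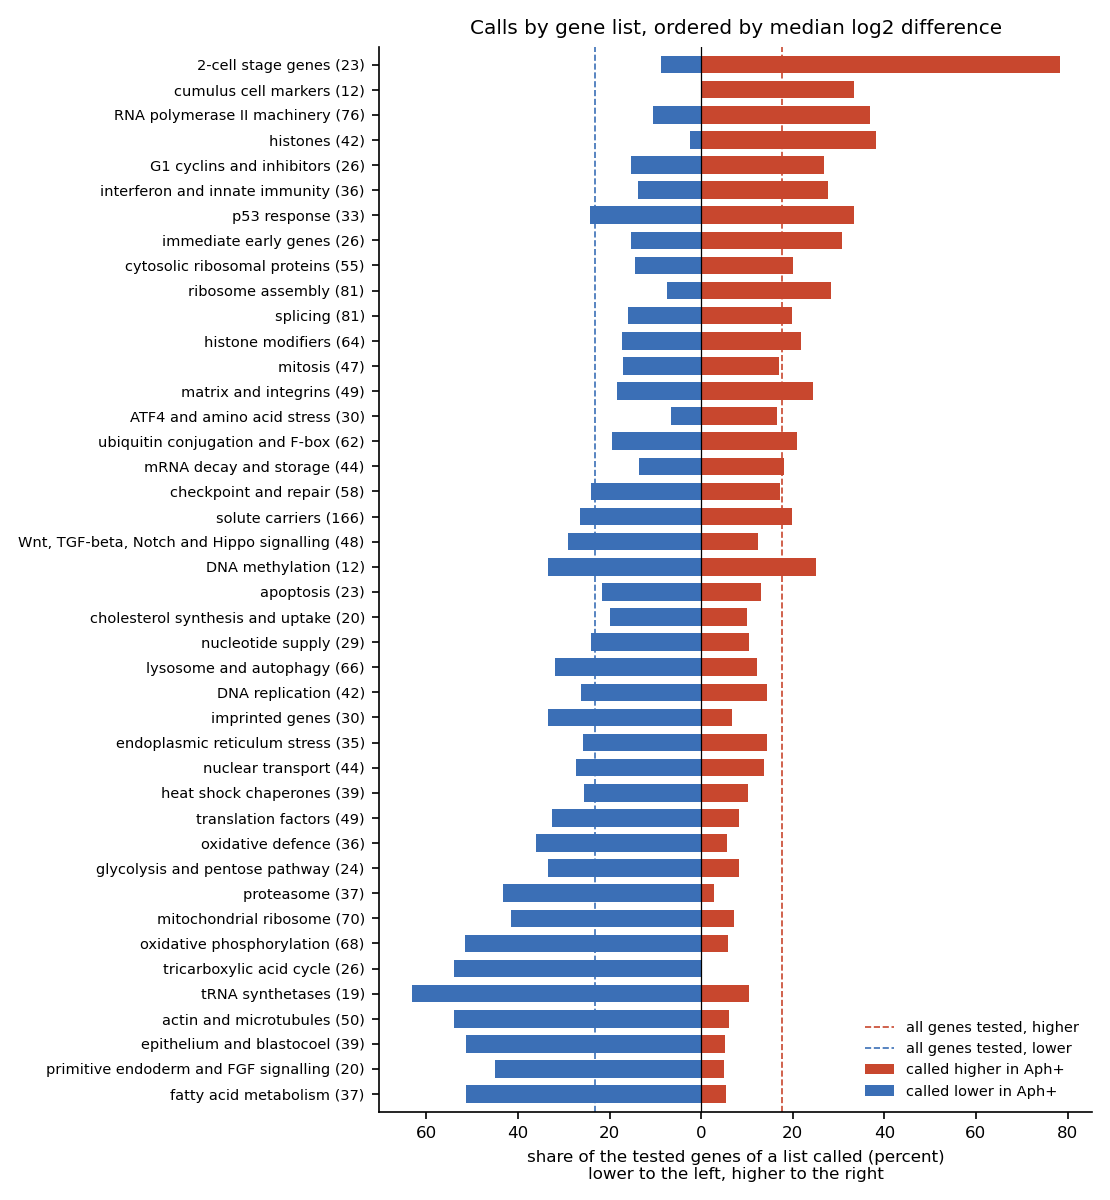
Share of the tested genes of each list (number in brackets) called higher (red, to the right) and lower (blue, to the left) in Aph+ embryos, in percent, with lists ordered by their median log2 difference; dashed lines give the shares over all genes, 17.6% higher and 23.3% lower. The 2-cell stage genes reach 78.3% higher, and the tricarboxylic acid cycle has no bar to the right.

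The enzymes that make and supply DNA split. Of 42 DNA replication genes, 6 were higher and 11 lower, close to the background shares, with a median of -0.53. Mcm5, part of the replicative helicase, had 11.11, 11.44 and 11.08 on the Aph- arrays and 8.70, 8.89 and 8.81 on the Aph+ arrays (5.31-fold lower, log2 difference -2.41, standard error 0.23, adjusted p = 0.000638). Fen1, which trims Okazaki fragments, had 10.33, 10.43 and 10.21 on the Aph- arrays and 8.66, 7.94 and 8.18 on the Aph+ arrays (4.17-fold lower), and Lig1, which seals them, and the clamp loader subunit Rfc4 fell 4.03-fold and 3.92-fold. The 6 higher genes included factors that fire origins. Dbf4, the activator of the Cdc7 kinase, had 8.68, 9.09 and 9.10 on the Aph- arrays and 10.87, 10.28 and 11.19 on the Aph+ arrays (3.53-fold higher), and Gins3 and Cdc45, partners of the helicase, rose 2.77-fold and 2.36-fold. The others were Pole4, Gmnn, which keeps origins from being licensed again, and Orc2 of the origin recognition complex. The call of Gmnn was lost under 11 of 18 alternatives and that of Orc2 under 4, and with 75th percentile scaling Gins3, Cdc45 and Pole4 did not pass. On the oocyte array Dbf4 read 11.33 and Cdc45 9.61, and of the 6 genes 5 lay within 2-fold of the oocyte and 1 below it. Of 10 subunits of the polymerases that aphidicolin acts on and of their partners, Pole4 rose (2.90-fold), Prim2 and Pold4 fell (at least 1.57-fold, and for Pold4 with no fold left at the detection limit and a difference of 0.18 with 75th percentile scaling) and 7 did not pass the test. Pola2, the polymerase alpha subunit, read 4.20, 4.29 and 7.65 on the Aph+ arrays, bright on 1 array and at the floor on the other 2 (adjusted p = 0.0641).

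Of 29 genes of nucleotide supply, 3 were higher and 7 lower (median -0.48), 10.3% and 24.1% against 17.6% and 23.3% of all genes. Ribonucleotide reductase, which makes deoxynucleotides, has 1 large subunit, Rrm1, and either of the small subunits Rrm2, used in S phase, and Rrm2b, induced by p53. Rrm2 had 10.51, 11.24 and 10.83 on the Aph- arrays and 8.22, 7.52 and 7.80 on the Aph+ arrays (8.06-fold lower, log2 difference -3.01, standard error 0.31, adjusted p = 0.000782), and Rrm1 10.49, 10.15 and 10.46 on the Aph- arrays and 6.91, 8.18 and 7.81 on the Aph+ arrays (6.66-fold lower). Rrm2b went the other way, with 6.07, 5.70 and 5.74 on the Aph- arrays and 7.67, 7.70 and 7.63 on the Aph+ arrays (3.55-fold higher, log2 difference 1.83, standard error 0.22, adjusted p = 0.00147). For all 3 subunits the groups lay apart, and the Aph+ level of Rrm2b stayed below the oocyte array, at 11.29. Tyms, the thymidylate synthase, was not detected on the Aph+ arrays (7.30, 7.35 and 7.37 on the Aph- arrays and 4.33, 4.61 and 4.45 on the Aph+ arrays, at least 2.78-fold lower), and Tk1, the thymidine kinase, was 3.17-fold lower. Ppat, which opens purine synthesis, was 2.28-fold higher and undetected in the oocyte.

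For G1 control 7 of 26 were higher and 4 lower (median 0.65). Cdkn1c, an inhibitor of cyclin-dependent kinases, had 6.76, 7.58 and 7.86 on the Aph- arrays and 11.66, 12.31 and 11.59 on the Aph+ arrays (22-fold higher, log2 difference 4.46, standard error 0.38, adjusted p = 0.000458) and was undetected in the oocyte. Ccne1, the cyclin E1 of S phase entry, was flat at 5.39, 5.35 and 5.40 without aphidicolin and reached 8.04, 9.20 and 8.40 with it (8.98-fold), also from an undetected oocyte level. E2f5, a repressing partner of the retinoblastoma family, and Rb1 itself rose 7.07-fold and 2.88-fold, both to levels below the oocyte array. Tfdp1, a partner of E2F factors, fell at least 3.18-fold, and Ccnd3 was 2.68-fold lower by its brighter probe, with its second probe in the other direction. Cdkn1a, the p53-induced inhibitor, had 7.76, 7.99 and 8.44 on the Aph- arrays and 8.99, 7.81 and 8.75 on the Aph+ arrays, where the groups overlapped and the test was not passed (log2 difference 0.46, adjusted p = 0.368), and with 75th percentile scaling its sign turned (-0.60).

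The list of the p53 response held 11 higher and 8 lower members of 33, which is 33.3% and 24.2% against 17.6% and 23.3% of all genes (median 0.46). Gadd45b, a stress sensor, had 5.34, 4.84 and 5.32 on the Aph- arrays and 9.58, 10.42 and 9.93 on the Aph+ arrays (28-fold higher, log2 difference 4.81, standard error 0.31, adjusted p = 0.000243). Ercc5, an endonuclease of nucleotide excision repair, had 7.11, 6.65 and 7.67 on the Aph- arrays and 10.52, 11.71 and 10.86 on the Aph+ arrays (14.8-fold), and Bbc3, a trigger of apoptosis, 6.77, 7.82 and 8.53 on the Aph- arrays and 11.15, 9.98 and 11.27 on the Aph+ arrays (8.54-fold). All 3 were undetected in the oocyte. Mdm2, the ligase that degrades p53, rose 2.93-fold to about its oocyte level (11.70), as did Ddit4, an inhibitor of mTOR (11.6-fold), and Plk2 rose 7.32-fold. The lower members were the RNA-binding protein gene Zmat3 (at least 2.63-fold lower), the damage recognition factor Xpc (at least 1.41-fold), the translesion polymerase Polk (at least 1.30-fold), Dram1 of autophagy (at least 1.92-fold) and 4 others, which were undetected on the Aph+ arrays. Of the 18 members detected on all 6 arrays 10 were higher and none lower, beside 28.0% and 17.1% of all such genes.

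Checkpoint and repair genes stood near the background, as 10 of 58 were higher and 14 lower (median -0.18). Xpa, a scaffold of nucleotide excision repair, had 6.55, 6.24 and 6.34 on the Aph- arrays and 9.85, 9.08 and 9.09 on the Aph+ arrays (7.82-fold higher), and Brca2 and Trp53bp1, of double-strand break repair, rose 4.78-fold and 4.33-fold. Brca2 then stood at about its oocyte level and Trp53bp1 below it (9.62 and 12.50). Mre11a, a nuclease that works at the same breaks, fell at least 4.99-fold and was detected on the untimed Aph+ array only. In the apoptosis list 3 of 23 were higher and 5 lower, 13.0% and 21.7%, also near the background. Of its 8 members detected on all 6 arrays none was called, so each call rests in part on undetected values. Bcl2l10, an inhibitor of cell death typical of the oocyte, was undetected in Aph- embryos and read 8.69, 8.75 and 8.45 in Aph+ embryos (at least 14.4-fold higher), and Xiap, an inhibitor of caspases, rose at least 8.78-fold. The oocyte array read 13.20 for Bcl2l10, above every Aph+ array. Casp9 and Casp6, initiator and executioner caspases, fell at least 3.37-fold and at least 2.16-fold.

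Mitosis genes divided evenly, as 8 of 47 were higher and 8 lower (median 0.14, which was -0.39 with arrays scaled to their 75th percentile). Aurka, a kinase of the spindle poles, had 10.15, 10.12 and 10.22 on the Aph- arrays and 5.10, 7.26 and 7.64 on the Aph+ arrays (at least 9.91-fold lower), and Anln, which builds the cleavage furrow, and the condensin subunit Ncaph fell 7.79-fold and 6.90-fold. Cenpn, of the centromere, and the kinesin Kif18a rose 3.08-fold and 2.97-fold, to levels at or under the oocyte array (11.41 and 9.42).

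**Figure D5:**
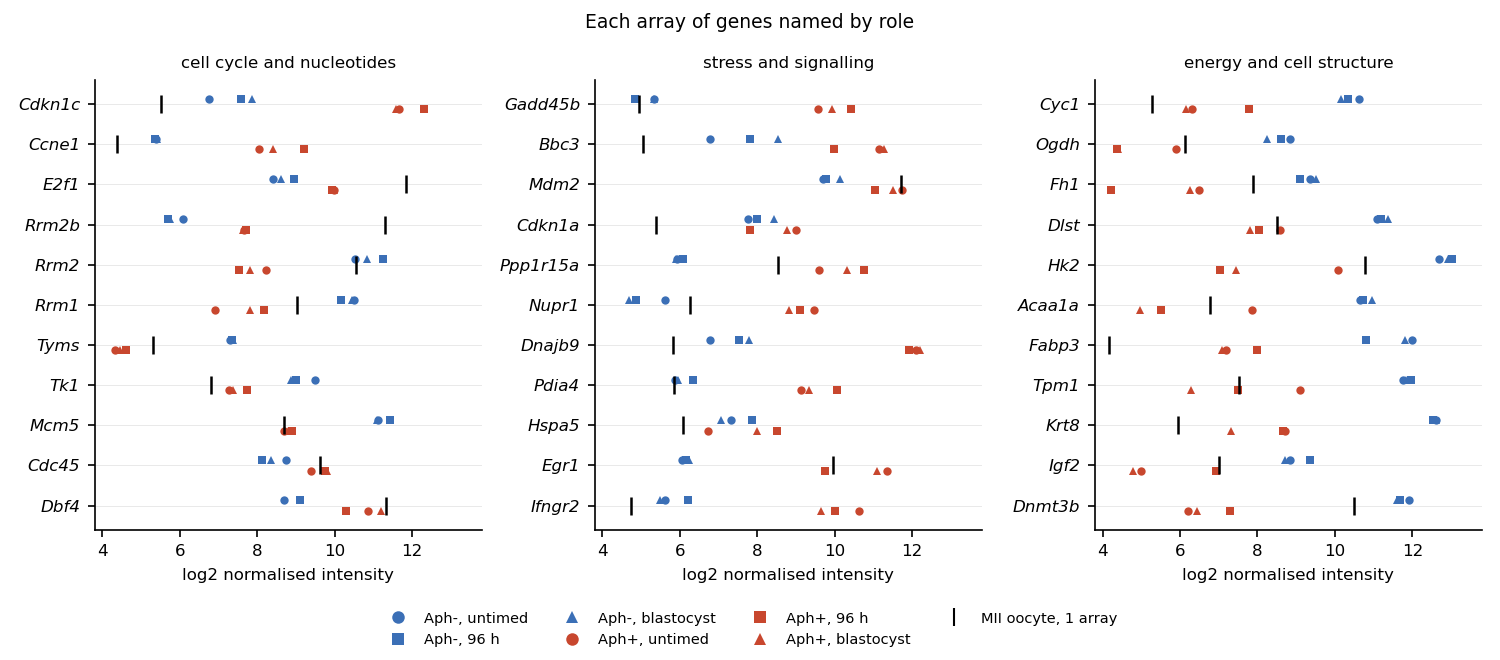
Log2 normalised intensity (horizontal axes) of each of the 6 arrays for 33 genes grouped by role, with blue for Aph-, red for Aph+, a symbol for the sample type and a black bar for the single MII oocyte array. Red and blue points lie apart for every gene shown but Cdkn1a and Hspa5.

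Histone genes were more often higher than lower. Of 42 tested, 16 were higher and 1 lower (median 0.69), and 15 of the 16 lay at least 2-fold above the oocyte array. That array did not detect 9 of the 16. H3c13 and H3c14, replication-dependent H3 genes, had 10.30, 10.14 and 10.16 on the Aph- arrays and 12.05, 12.33 and 12.12 on the Aph+ arrays and 9.74, 9.93 and 10.02 on the Aph- arrays and 12.12, 12.30 and 12.08 on the Aph+ arrays (3.90-fold and 4.84-fold higher). H4c11 had 6.71, 5.58 and 6.08 on the Aph- arrays and 8.91, 8.18 and 9.71 on the Aph+ arrays (7.0-fold), and H2ac18 rose at least 8.59-fold. The blastocyst array was the highest Aph+ array for both of these. H1f8, the linker histone of the oocyte, was the exception to the oocyte rule, with 9.07, 8.94 and 9.45 on the Aph+ arrays against 12.67 in the oocyte and no detection in Aph- embryos (at least 20.8-fold higher). H2al1e, a short H2A variant known from the testis, was undetected in the oocyte and in Aph- embryos and read 9.80, 8.13 and 8.47 with aphidicolin (at least 16.2-fold), and it has near-identical copies. H2ax, the variant that is phosphorylated at DNA breaks, was the only lower member (9.22, 9.75 and 9.59 on the Aph- arrays and 8.05, 8.87 and 7.80 on the Aph+ arrays, 2.43-fold). Its call was lost under 6 of 18 alternatives. Replicative histone genes share much of their sequence, so cross-hybridization among them cannot be told apart from change in each. The study's methods amplified the RNA before hybridisation, and how much of each histone mRNA this step took up was not tested. The values are thus no measure of total histone mRNA.

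Of 64 histone modifiers, 14 were higher and 11 lower (median 0.18, and -0.04 with 75th percentile scaling). Brdt, a bromodomain protein of the male germ line, was undetected in Aph- embryos and read 10.44, 9.29 and 9.80 in Aph+ embryos and 11.17 in the oocyte (at least 33.5-fold higher). Prmt6, an arginine methyltransferase, rose from 6.51, 6.34 and 6.69 to 10.70, 10.02 and 10.29 (14.2-fold, log2 difference 3.82, standard error 0.27, adjusted p = 0.000286) and was undetected in the oocyte. Bmi1, of Polycomb complex 1, and Ezhip, an inhibitor of Polycomb complex 2, rose at least 7.59-fold and 6.83-fold. Ezhip stayed below its oocyte level of 12.84 on every Aph+ array. Ash2l, a core subunit of histone H3 methyltransferases, fell at least 10.8-fold. In the DNA methylation list 3 of 12 were higher and 4 lower. Dnmt3b, a de novo methyltransferase, had 11.91, 11.67 and 11.61 on the Aph- arrays and 6.21, 7.30 and 6.44 on the Aph+ arrays (33.8-fold lower, log2 difference -5.08, standard error 0.34, adjusted p = 0.000261), below its oocyte level of 10.48. Its partner Dnmt3l fell 3.29-fold, while Dnmt1, the maintenance enzyme, and Dppa3, which protects maternal methylation, rose 1.98-fold and 6.26-fold, although Dnmt1 differed by -0.086 with 75th percentile scaling. The oocyte array read 10.75 for Dnmt1, above every Aph+ array.

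Imprinted genes, expressed from 1 parental copy, gave 2 higher and 10 lower members of 30 (median -0.58, or -0.01 with 75th percentile scaling). Igf2, a growth factor, had 8.84, 9.35 and 8.70 on the Aph- arrays and 5.0, 6.94 and 4.77 on the Aph+ arrays (at least 6.55-fold lower), with the 96 h array the highest Aph+ one. Slc38a4, an amino acid transporter, showed the same array pattern at 4.44, 7.95 and 4.38 against 10.11, 10.09 and 9.90 (at least 10.9-fold lower), and the adaptor gene Gab1 fell at least 15.1-fold. Cdkn1c, described above, and Asb4 were the 2 higher members, and Asb4 stayed below its oocyte level.

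Genes that transcribe mRNA were more often higher than lower. Of 76 genes of the RNA polymerase II machinery, a few polymerase III subunits included, 28 were higher and 8 lower, which is 36.8% and 10.5%, with a median of 0.75 (0.20 with 75th percentile scaling, where the median of all genes was -0.03). Among the 53 detected on all 6 arrays, 25 were higher and 1 lower, where all such genes had 28.0% higher and 17.1% lower. Gtf2f1, the large subunit of TFIIF, had 8.30, 7.53 and 7.78 on the Aph- arrays and 10.71, 11.07 and 11.42 on the Aph+ arrays (9.16-fold higher, log2 difference 3.20, standard error 0.31, adjusted p = 0.000707). The Mediator subunits Med10 and Med21 rose 6.73-fold and 5.76-fold, and the polymerase subunits Polr2d, Polr2f and Polr2j rose 4.44-fold, 5.05-fold and 5.20-fold. Cdk9, the kinase that releases paused polymerase, was undetected without aphidicolin and in the oocyte and read 7.31, 6.76 and 6.89 with it (at least 4.62-fold). Of the 28 higher genes 15 lay at least 2-fold above the oocyte array, 12 within 2-fold of it and 1 below. The oocyte array did not detect 3 of the 28. Among the falls were Polr3b, of polymerase III (at least 10.8-fold lower), and the Mediator subunit Med30 (6.33-fold).

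RNA processing and ribosome assembly gave smaller shifts. Of 81 splicing genes, 16 were higher and 13 lower, near the background (median 0.20, and -0.35 with 75th percentile scaling). Cwc22, which in human cells loads EIF4A3 onto spliced mRNA, had 8.50, 8.31 and 9.05 on the Aph- arrays and 12.35, 12.63 and 12.62 on the Aph+ arrays (15-fold higher, log2 difference 3.91, standard error 0.28, adjusted p = 0.000296), and Eif4a3 itself had 9.89, 9.96 and 10.01 on the Aph- arrays and 12.56, 12.40 and 12.29 on the Aph+ arrays (5.52-fold higher). Both pairs of groups lay apart, and Ptbp3 and Snrnp200, an RNA-binding protein and a spliceosome helicase, fell 4.23-fold and 3.62-fold. In the list of ribosome assembly 23 of 81 were higher and 6 lower, 28.4% and 7.41%, and of those detected on all 6 arrays 22 of 61 were higher and 1 lower, against 28.0% and 17.1% of all such genes. Its median was 0.23, and -0.38 with 75th percentile scaling. Rrp9, of the small subunit processome, had 8.66, 8.63 and 8.24 on the Aph- arrays and 10.36, 10.51 and 10.57 on the Aph+ arrays (3.92-fold higher), and Polr1e, of polymerase I, rose 3.80-fold. Of the 23 higher genes 20 lay at least 2-fold above the oocyte array, which did not detect 12 of the 23. Pes1 and Ddx21, which also act in the nucleolus, fell at least 3.71-fold and at least 7.22-fold.

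The cytosolic ribosomal proteins themselves gave 11 higher and 8 lower members of 55 (median 0.33, and -0.23 with 75th percentile scaling). Rpl3l, a form of Rpl3 known from muscle, was undetected in Aph- embryos and in the oocyte and read 11.02, 10.15 and 9.33 in Aph+ embryos (at least 41.9-fold higher, log2 difference 5.76, standard error 0.46, adjusted p = 0.000404). Rps25 rose 2.67-fold, while Rps2 fell 2.11-fold. Many ribosomal protein genes have processed copies in the genome, and their probes may share them.

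Translation factors and tRNA synthetases were lower more often than higher. Of 49 factors, 4 were higher and 16 lower (median -0.65), and of 19 synthetases, 2 were higher and 12 lower, 63.2% lower against 23.3% of all genes (median -1.34). Lars, for leucine, had 8.41, 7.87 and 8.38 on the Aph- arrays and 4.37, 4.18 and 4.20 on the Aph+ arrays (at least 5.12-fold lower), Wars, for tryptophan, 9.27, 9.05 and 9.05 on the Aph- arrays and 5.90, 5.59 and 6.39 on the Aph+ arrays (at least 8.59-fold), and Vars, for valine, fell at least 4.91-fold. None of the 3 had overlapping groups, and Hars and Iars were the 2 higher members (2.19-fold and 2.12-fold, the latter with 2 of 3 probes in that direction). Eif1a and Eif2s2, of translation initiation, fell 3.96-fold and 3.20-fold. Eif4e3, a cap-binding protein, had 5.25, 5.54 and 5.20 on the Aph- arrays and 8.20, 8.21 and 7.98 on the Aph+ arrays (6.96-fold higher) against 11.78 in the oocyte.

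Proteins that store and remove maternal mRNA, and those of nuclear transport, included several that were higher in Aph+ embryos and brighter still in the oocyte. Btg4, an adaptor that recruits the CCR4-NOT deadenylase to maternal mRNA, was undetected in Aph- embryos and read 7.80, 7.45 and 8.33 in Aph+ embryos (at least 8.46-fold higher), and Cnot7, a deadenylase of that complex, had 7.65, 7.14 and 7.28 on the Aph- arrays and 9.57, 9.96 and 10.03 on the Aph+ arrays (5.65-fold). Cpeb1, which controls poly(A) tails in the oocyte, rose at least 8.10-fold. Their oocyte values were 10.84, 11.86 and 8.88, above every Aph+ array. Smg1, a kinase of nonsense-mediated decay, was undetected in Aph+ embryos (at least 4.04-fold lower). Of 44 genes of mRNA decay and storage, 8 were higher and 6 lower, near the background. Of 44 of nuclear transport, 6 were higher and 12 lower (median -0.60). Kpna7, the importin alpha of oocytes, was undetected in Aph- embryos and at least 17-fold higher in Aph+ embryos, and Lmnb1, a lamin of the nuclear envelope, had 9.65, 10.40 and 10.29 on the Aph- arrays and 7.36, 5.43 and 4.36 on the Aph+ arrays (at least 12.9-fold lower), with the untimed array highest. The oocyte array read 10.84 for Kpna7, above every Aph+ array.

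Mitochondrial genes were more often lower than higher in Aph+ embryos in each of 3 lists. Of 68 genes of oxidative phosphorylation, 4 were higher and 35 lower (51.5% lower, median -1.12), of 26 of the tricarboxylic acid cycle, none was higher and 14 lower (53.8%, median -1.25), and the mitochondrial ribosome had 5 higher and 29 lower members of 70 (41.4%, median -1.0). Cyc1, a cytochrome of complex III, had 10.63, 10.33 and 10.15 on the Aph- arrays and 6.31, 7.79 and 6.15 on the Aph+ arrays (at least 12.3-fold lower, log2 difference -3.62, standard error 0.47, adjusted p = 0.00193), and Ndufa8, of complex I, 10.91, 10.93 and 10.76 on the Aph- arrays and 8.96, 7.18 and 7.46 on the Aph+ arrays (7.99-fold). All 35 lower genes of oxidative phosphorylation lay at least 2-fold above the oocyte array in Aph- embryos, and 21 of the 35 did so in Aph+ embryos too. The oocyte array did not detect 11 of the 35. The 4 higher ones were Cox7a1 and Cox6b2, tissue-specific forms of cytochrome oxidase subunits known from muscle and testis (8.32-fold and 7.26-fold), and Ndufb2 and Ndufa2 of complex I (2.61-fold and 1.80-fold, the latter at -0.16 with 75th percentile scaling). In the cycle, Ogdh and Dlst, of the oxoglutarate dehydrogenase complex, had 8.85, 8.62 and 8.26 on the Aph- arrays and 5.90, 4.38 and 4.40 on the Aph+ arrays and 11.10, 11.20 and 11.37 on the Aph- arrays and 8.58, 8.04 and 7.82 on the Aph+ arrays (at least 6.21-fold and 8.45-fold lower). Fh1, the fumarase, fell at least 8.89-fold and was at the floor on the 96 h Aph+ array. Ogdh and Fh1 were below, and Dlst near, their oocyte levels in Aph+ embryos (6.13, 7.88 and 8.51). In the mitochondrial ribosome Mrpl24 fell at least 8.15-fold, and Mrpl20 rose 2.59-fold.

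Fuel genes followed. Of 24 genes of glycolysis and the pentose pathway, 2 were higher and 8 lower (median -0.90). Hk2, a hexokinase, had 12.69, 13.02 and 12.92 on the Aph- arrays and 10.08, 7.05 and 7.45 on the Aph+ arrays (25.8-fold lower), and its untimed Aph+ array lay more than 2 log2 units above the other 2. Gapdh and the glucose transporter Slc2a3 fell 4.29-fold and 3.13-fold. Ldhc, the lactate dehydrogenase of the testis, had 5.12, 6.43 and 5.60 on the Aph- arrays and 9.66, 9.78 and 8.87 on the Aph+ arrays (13.2-fold higher), and Slc16a6, a carrier of ketone bodies, 6.45, 6.13 and 7.72 on the Aph- arrays and 10.82, 10.97 and 11.41 on the Aph+ arrays (19.7-fold). Of 3 sperm markers measured Ldhc was the only one higher and none was lower, and it was detected in the oocyte. In fatty acid metabolism 2 of 37 were higher and 19 lower (median -1.79). Fabp3, a fatty acid carrier, had 11.99, 10.80 and 11.82 on the Aph- arrays and 7.20, 8.0 and 7.08 on the Aph+ arrays (17.3-fold lower), and Acaa1a, of peroxisomal oxidation, and the elongase Elovl6 fell at least 18.1-fold and at least 9.68-fold. Acsl4, which activates arachidonic acid, rose 16.5-fold, with 9.26, 10.12 and 9.21 against 5.41, 5.26 and 5.78. Of 20 genes of cholesterol synthesis and uptake, 2 were higher and 4 lower, and Srebf2, their main regulator, fell at least 8.71-fold.

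Stress lists held strong rises beside falls. In the list of endoplasmic reticulum (ER) stress 5 of 35 were higher and 9 lower (median -0.59). These shares, 14.3% and 25.7%, lay near the background of 17.6% and 23.3%. Dnajb9, a cochaperone of the ER, had 6.78, 7.52 and 7.77 on the Aph- arrays and 12.09, 11.93 and 12.20 on the Aph+ arrays (26.3-fold higher, log2 difference 4.72, standard error 0.32, adjusted p = 0.000261), and Pdia4, a disulfide isomerase, 5.88, 6.35 and 5.95 on the Aph- arrays and 9.13, 10.06 and 9.35 on the Aph+ arrays (10.9-fold). Hspa5, the main ER chaperone, had 7.33, 7.87 and 7.06 on the Aph- arrays and 6.74, 8.52 and 8.0 on the Aph+ arrays, where the groups overlapped (adjusted p = 0.613), and Pdia6 had 7.16, 7.28 and 7.26 on the Aph- arrays and 4.58, 4.21 and 6.59 on the Aph+ arrays (at least 2.34-fold lower). Selenos, of ER-associated degradation, rose 8.25-fold, and Herpud1 of the same process fell at least 5.43-fold with 1 of 3 Aph+ arrays detected. The ER stress element, searched as CCAAT, 9 bases of any kind and CCACG on either strand, is bound by ATF6 and is found in 0.119% of the 32851 RefSeq windows and in 8 of the 31 list members with a window. None of these 8 was higher, Hsp90b1 and Pdia6 were lower, and Calr, Creld2, Dnajc3, Ero1b, Hspa5 and Syvn1 did not pass the test. The calls of Hsp90b1 and Pdia6 were lost under 3 and 7 of 18 alternatives. Of the 23 without the element 5 were higher, 7 lower and 11 did not pass. The 4 stretches below, of 120 bases each, are shown because the pair that rose most lacks the element on both strands and the other pair holds it, in capitals (GRCm38.p6, chr12:44210069-44210188 and chr6:47813513-47813632 on the minus strand, chr2:34771970-34772089 and chr12:17266469-17266588 on the plus strand).
Dnajb9: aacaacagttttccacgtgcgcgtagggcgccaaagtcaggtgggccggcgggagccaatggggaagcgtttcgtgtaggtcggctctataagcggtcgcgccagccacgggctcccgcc
Pdia4: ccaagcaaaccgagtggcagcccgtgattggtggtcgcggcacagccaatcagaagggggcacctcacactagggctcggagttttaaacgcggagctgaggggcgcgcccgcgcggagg
Hspa5: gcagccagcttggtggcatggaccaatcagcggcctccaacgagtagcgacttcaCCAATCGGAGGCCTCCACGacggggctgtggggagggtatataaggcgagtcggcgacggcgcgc
Pdia6: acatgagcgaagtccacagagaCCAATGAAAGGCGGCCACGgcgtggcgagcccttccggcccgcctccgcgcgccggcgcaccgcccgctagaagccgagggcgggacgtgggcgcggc
The absence of these letters from a window says nothing of the factor.

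In the list of ATF4 and amino acid stress 5 of 30 were higher and 2 lower (median 0.02, of changing sign under 5 of the alternatives). Ppp1r15a, which ends the block of translation under stress, had 5.93, 6.08 and 5.90 on the Aph- arrays and 9.58, 10.75 and 10.31 on the Aph+ arrays (18.9-fold higher), and Nupr1, a stress-induced regulator, 5.60, 4.87 and 4.68 on the Aph- arrays and 9.47, 9.10 and 8.82 on the Aph+ arrays (at least 16.5-fold). Both groups of arrays lay apart. Ddit3, a factor of prolonged stress, rose 2.22-fold, and Asns, the asparagine synthetase, fell 4.37-fold. Of 39 heat shock chaperones, 4 were higher and 10 lower (median -0.63), 10.3% and 25.6% against 17.6% and 23.3% of all genes. Hspa1a, the inducible chaperone, had 4.31, 4.86 and 4.40 on the Aph- arrays and 7.21, 7.65 and 7.72 on the Aph+ arrays (at least 6.55-fold higher), while Fkbp4 and Hspe1, cochaperones of HSP90 and of the mitochondrial chaperonin, fell 11-fold and 6.05-fold. In oxidative defence 2 of 36 were higher and 13 lower, 36.1% lower (median -0.87). Gstk1 and Gstp1, glutathione transferases, were undetected in Aph+ embryos (bounds of at least 8.35-fold for the fall of the former and at least 4.96-fold for the latter), and Glrx, a glutaredoxin, had 10.93, 10.76 and 10.81 on the Aph- arrays and 7.75, 4.96 and 4.98 on the Aph+ arrays (at least 19.4-fold), highest on the untimed Aph+ array.

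Immediate early genes gave 8 higher and 4 lower members of 26 (median 0.40). Egr1, a factor induced within minutes of a stimulus, had 6.07, 6.15 and 6.25 on the Aph- arrays and 11.34, 9.75 and 11.08 on the Aph+ arrays (23.8-fold higher) and 9.94 in the oocyte, and Ier3 had 6.48, 7.0 and 7.63 on the Aph- arrays and 12.25, 10.08 and 10.76 on the Aph+ arrays (15.9-fold) and 10.43. Id1, an inhibitor of differentiation factors, was undetected in the oocyte and rose at least 14.8-fold, whereas Id2 was undetected in Aph+ embryos (at least 3.12-fold lower). Klf6 was also undetected there (at least 7.41-fold lower).

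In the list of interferon and innate immunity 10 of 36 were higher and 5 lower (27.8% higher, median 0.51). Ifngr2, which encodes the signalling chain of the receptor for interferon gamma, had 5.61, 6.21 and 5.48 on the Aph- arrays and 10.62, 10 and 9.64 on the Aph+ arrays (19.9-fold higher, log2 difference 4.32, standard error 0.35, adjusted p = 0.000425). Ifitm1 and Ifi27, both induced by interferon, rose at least 6.69-fold and at least 7.93-fold, each highest on the untimed array. Psmb9, an immunoproteasome subunit, and the sensor Oas1g were undetected in Aph+ embryos, and their falls came to at least 3.05-fold and at least 1.59-fold. Of 6 markers of blood cells measured, 3 were higher and none lower, where all genes had 17.6% higher and 23.3% lower. The 3 were Cd52 (9.35, 8.77 and 8.27 on the Aph+ arrays, undetected on the Aph- arrays), Coro1a and Lyz2. Of the 6, 4 were undetected on every Aph- array and passed the filter through the Aph+ arrays. Another 6 of the 12 on the chip were not tested. The summed linear level of the 6 measured was 1271 to 1994 in Aph- and 1056 to 2426 in Aph+ embryos, so the sums overlapped. Laptm5 was bright on every array but the 96 h Aph+ one, with a log2 difference of -2.06 (limma, adjusted p = 0.284). Hba-a1 and Slc4a1, of red cells, were detected on the untimed and 96 h Aph+ arrays and not on the blastocyst one. Of 12 markers of cumulus cells, the cells that surround the oocyte, 4 were higher and none lower: Akr1cl, Amhr2, Timp1 and Igfbp4. Over all genes 17.6% were higher and 23.3% lower. Of the 12, 6 were undetected on every Aph- array and passed the filter through the Aph+ arrays. Another 18 of the 30 on the chip were not tested. The summed level of the 12 was 2906 to 3512 in Aph- embryos, 8774, 3164 and 3078 on the 3 Aph+ arrays, 2973 in the oocyte and 29962 in cumulus cells, so that the untimed Aph+ array stood apart. The part of such cells in the results was not tested.

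Of 37 proteasome genes, 1 was higher and 16 lower (43.2% lower, median -1.0). Psmb3 had 11.58, 11.72 and 11.79 on the Aph- arrays and 9.52, 9.54 and 9.70 on the Aph+ arrays (4.32-fold lower, log2 difference -2.11, standard error 0.21, adjusted p = 0.000755), and Psmc3, an ATPase of the cap, fell 6.99-fold. The arrays of Psmb3 lay close together within each group and far apart between them. Genes of ubiquitin conjugation and F-box proteins were even, as 13 of 62 were higher and 12 lower (median 0.01, of either sign under the alternatives). Fbxw15, Fbxw19, Fbxw24 and Fbxw26, oocyte F-box genes that are close copies on chromosome 9, rose at least 48.6-fold, at least 22.2-fold, at least 14.7-fold and at least 17.1-fold and were all detected in the oocyte, and Ube2f, a conjugating enzyme, fell at least 13.1-fold. For Fbxw19 and Fbxw24 the oocyte array, at 11.06 and 10.53, lay above every Aph+ array. In the list of lysosome and autophagy 8 of 66 were higher and 21 lower (median -0.50). Map1lc3a and Map1lc3b, which coat autophagosomes, had 7.96, 8.38 and 8.43 on the Aph- arrays and 11.04, 10.92 and 11.21 on the Aph+ arrays and 8.75, 9.52 and 8.90 on the Aph- arrays and 11.18, 10.61 and 11.16 on the Aph+ arrays (6.95-fold and 3.81-fold higher), while Gabarapl2 of the same family had 8.48, 8.82 and 8.68 on the Aph- arrays and 5.25, 5.86 and 5.52 on the Aph+ arrays (at least 6.80-fold lower).

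Genes of epithelium and cytoskeleton were more often lower than higher. Of 39 epithelial and blastocoel genes, 2 were higher and 20 lower (51.3% lower, median -1.40). Krt8 and Krt18, the keratins of the trophectoderm, had 12.62, 12.54 and 12.62 on the Aph- arrays and 8.72, 8.65 and 7.31 on the Aph+ arrays and 11.96, 11.72 and 11.83 on the Aph- arrays and 6.93, 8.30 and 5.57 on the Aph+ arrays (20.6-fold and at least 26.2-fold lower). The 2 higher members were the water channels Aqp9 (10.17, 10.08 and 10.54 on the Aph- arrays and 11.82, 11.80 and 11.95 on the Aph+ arrays, 3.02-fold) and Aqp11 (4.89-fold). Of 50 actin and microtubule genes, 3 were higher and 27 lower (54.0% lower, median -1.38). Tpm1, a tropomyosin, had 11.75, 11.98 and 11.84 on the Aph- arrays and 9.09, 7.51 and 6.29 on the Aph+ arrays (18.7-fold lower), and the myosins Myh10 and Myl12a fell at least 7.11-fold and at least 6.07-fold. Vil1, a bundler of microvillar actin, was undetected in Aph- embryos and at least 5.83-fold higher in Aph+ embryos, below its oocyte level. Genes of matrix and integrins gave 12 higher and 9 lower members of 49 (median 0.13, of either sign under the alternatives), with Itgb7 at least 10.7-fold higher and Itga3 at least 2.52-fold lower.

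Genes of the primitive endoderm, the second lineage of the inner cell mass, and of FGF signalling gave 1 higher and 9 lower members of 20 (median -1.51). Gata6, the lineage's early factor, had 9.88, 10.15 and 10.15 on the Aph- arrays and 6.51, 4.79 and 5.52 on the Aph+ arrays (at least 15.1-fold lower), Pdgfra, its surface marker, was undetected in Aph+ embryos (at least 4.75-fold lower), and Dab2 fell 6.33-fold. In the list of Wnt, TGF-beta, Notch and Hippo signalling 6 of 48 were higher and 14 lower (median -0.29, and 0.42 with 75th percentile scaling). Wnt7b, a ligand, had 9.71, 9.81 and 9.77 on the Aph- arrays and 5.95, 7.39 and 4.37 on the Aph+ arrays (at least 9.64-fold lower), and the Hippo kinase Stk4 and its target factor Tead2 fell at least 3.48-fold and at least 5.93-fold. Bmp15, like Gdf9 a ligand of the oocyte, was undetected in Aph- embryos and read 9.50, 9.93 and 9.85 in Aph+ embryos (at least 31.6-fold higher) and 12.64 in the oocyte.

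Of 166 solute carriers, 33 were higher and 44 lower, near the background (median -0.25, and 0.10 with 75th percentile scaling). Slc10a6, which takes up steroid sulfates, had 5.47, 4.57 and 6.88 on the Aph- arrays and 11.37, 10.69 and 11.25 on the Aph+ arrays (at least 42.3-fold higher), and Slc27a5, which acts on bile acids in liver, was undetected in Aph- embryos and in the oocyte and read 8.56, 9.81 and 8.70 in Aph+ embryos (at least 19-fold). Slc11a1, a metal carrier of macrophages, rose 8.40-fold. In the other direction Slc15a2, a carrier of small peptides, was undetected in Aph+ embryos, at 4.51, 4.50 and 4.85 against 10.18, 10.67 and 10.16 (at least 22.2-fold lower), and Slc7a6, an amino acid carrier, was at least 9.31-fold lower.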

How the data were processed

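RNA of pooled embryos, oocytes and cumulus cells was hybridised to Illumina mouse BeadChips, 13 arrays in all. The authors deposited mean bead intensity per probe without background subtraction, the detection p-value of each probe from BeadStudio 3.2, and a table of log2 values, for which the submitters' notes name RMA and lumi. The log2 values had the same distribution on every array, and served as an alternative. Intensities of the 13 arrays were normalised together with neqc (offset 16) of limma 3.58.1 in R 4.3.3. Of 25697 probes, 23978 had 1 gene symbol and 10912 of these were detected (p under 0.01) on at least 1 of the 6 fertilized arrays; the brightest probe stood for each of 8601 genes. Of 1827 genes with several probes, 390 had probes that differed in direction.

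The 6 arrays were grouped by their labels and fitted with lmFit and eBayes, with Benjamini-Hochberg adjustment over all 8601 genes and a call at adjusted p under 0.05. An exact permutation test of 3 against 3 arrays cannot go below p = 0.1. An undetected group was set to the detection limit of each array (4.75 to 6.15 on the log2 scale), and for named genes so was any single value under its array's limit, a choice made after the values were seen. The scripts were tested on simulated data.

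The comparison and the gene lists were chosen with earlier results of these data known. Named genes are the 10 largest rises and falls that were called without overlap of the arrays, up to 4 such members of each list in each direction, and members of marker lists. The rank was by log2 difference, with the limit used only for a group undetected on all its arrays. The neighbours of Tcstv1, the promoter examples, Zfp352, Zscan4c, Guca1a, Dppa4, Gmnn, Orc2, Mdm2, Plk2, H3c13, H3c14, Polr2d, Polr2f, Polr2j, Cdk9 and the members that did not pass were added after their values were seen. Promoters are RefSeq windows of GRCm38.p6.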

Additional observations from a re-analysis of the deposited data

Results flagged for a closer look

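For the 20 genes taken as the largest rises and falls, the difference between Aph+ and Aph- was also taken in somatic cell nuclear transfer (SCNT) embryos, in a limma fit over the 10 embryo arrays. The genes were chosen for their size in fertilized embryos on the same arrays, which favours a smaller difference in SCNT embryos, so the 12 interactions at an adjusted p under 0.05 are given as values and not as a count of evidence. The SCNT Aph+ group has 1 array, which has no spread of its own and which correlated at 0.859 to 0.869 with the cumulus cell arrays, the cells whose nuclei were transferred. Its column in the intensity table carries the word for blastocyst, which its sample type label has and its title lacks, and it was taken as that sample because no other SCNT sample is labelled with aphidicolin.

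The fitted fertilized minus SCNT difference of the log2 differences was 10.14 for Tcstv1 (adjusted p = 0.00124), 10.08 for AF067061, 9.48 for Spz1 (adjusted p = 0.000238), 9.45 for BC147527, 9.45 for B020031M17Rik, 9.45 for Gm20767, 9.16 for Bex6, 7.87 for Gm428 and 4.25 for 1700093K21Rik. All but 1700093K21Rik lay under the detection limit of the SCNT Aph+ array (5.97), so these values rest on background there. With every value held at or above its array's limit they came to 8.56 for Tcstv1, 8.26 for AF067061, 7.68 for Spz1 and 7.15 for Bex6. Among the falls the fitted value was -5.82 for BC051665 (adjusted p = 0.0249), -3.38 for Ank (adjusted p = 0.0459) and -2.90 for AA467197 (adjusted p = 0.0104), or -5.74, -2.78 and -2.14 at the limits. Oosp1 and Cdx2 had SCNT differences of 6.69 and -4.77 at the limits, and their interactions did not pass (adjusted p = 0.376 and 0.298).

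Over all genes, 2293 of 8601 had an interaction at adjusted p under 0.05, 1211 with the fertilized difference above and 1082 with it below that of SCNT embryos.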

How the results depend on the processing

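The counts of 1515 higher and 2002 lower genes stayed within 1.5-fold under the authors' log2 values, no background correction, normalisation of the 6 arrays alone, other filters, the mean of all probes, the fit over 13 arrays, the trend with robust option and array weights. With 75th percentile scaling 2936 were higher and 3001 lower, so that 49.5% of calls were higher against 43.1%, and 219 called genes turned sign. Leaving out 1 array at a time gave 988 to 1769 higher and 1188 to 2197 lower genes, and the lower counts came from leaving out an Aph- array (for lower genes 1252 without the untimed, 1295 without the 96 h and 1188 without the blastocyst array). With the sample type label as a replicate block, 1185 were higher and 1530 lower, of which 1174 and 1501 were among the calls above. Deviations of same-labelled arrays correlated at -0.10, -0.07 and 0.02, and those of unlike labels at -0.07 to 0.14. With 3 arrays a group, these values cannot decide whether the labels pair the samples.

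The median of all genes moved from -0.16 to -0.31 with the authors' values, -0.03 with 75th percentile scaling, -0.39 with detection on at least 3 arrays and 0.04 without a filter. List medians turned sign in 20 of 846 pairs of list and setting. With 75th percentile scaling the sign turned for the medians of mitosis, ribosomal proteins, ribosome assembly, splicing, histone modifiers, Wnt and related signalling and solute carriers, as given above. Single genes that turned sign there were Pold4 (0.18), Dnmt1 (-0.086), Ndufa2 (-0.16), Cdkn1a (-0.60), Hspa5 (-0.52), Creld2 (-0.45) and Ero1b (0.68). Actb turned to 1.01 with the mean of all its probes and Pou5f1 to 0.41 with the authors' values. Without 1 array, Pramel7 ranged from -0.26 to 0.035, 4833420G17Rik from -0.94 to 0.46, Hspa5 from -0.053 to 0.84, Dnajc3 from -1.41 to 0.42 and Ero1b from -0.65 to 0.084. Of the 239 genes named, 45 lost their call under at least 1 alternative. The number was 31 without the untimed, 31 without the 96 h and 34 without the blastocyst Aph- array. It was 18 with no filter on detection, 13 with the block and 12 with 75th percentile scaling. Gmnn (11 of 18), Prim2 (10), Iars (9), Igfbp4 and Ndufa2 (8 each) lost their call most often. They were followed by Lyz2 and Pdia6 (7 each) and by Ddit3, Dram1, Eif2s2, H2ax, Timp1 and Xpc (6 each). The cause was not tested.

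The dim Aph+ arrays limit what low genes can show, and 3 arrays a group limit the precision.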

Other observations

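The spread between Aph+ arrays was uneven. A standard deviation above 1 log2 unit was seen in 2228 of 8601 genes among the Aph+ and in 23 among the Aph- arrays. Of the 2002 genes called lower, 321 had such a spread in Aph+ embryos, and the highest Aph+ array was the untimed one in 839 (41.9%), the 96 h one in 636 and the blastocyst one in 527. Of the 1515 genes called higher, 100 had it, and the highest array was the blastocyst one in 612 (40.4%), the 96 h one in 501 and the untimed one in 402. Over all genes the untimed array was highest in 2799 (32.5%).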
